A study of Sus scrofa with 6 samples.

Results

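Chromatin accessibility of pig somites was compared between embryonic day 21 (E21) and embryonic day 18 (E18). The 4 libraries labelled somite, out of 6 libraries in the series, were used: purebred Tibetan embryos at E18 (E18 ZZ) and at E21 (E21 ZZ), and Duroc × Tibetan embryos at E18 (E18 DZ) and at E21 (E21 DZ). Each library was made from 5 pooled embryos of a single sow, and the labels name no treatment and no engineered allele. There was 1 library for each stage and breed, so the breeds served as the 2 replicates of a stage. The p-values measure the spread between these libraries after a term for breed, moderated across all regions or windows tested. The members were 39949 kept barcodes of 42973 deposited for these libraries, 11243 in E18 ZZ, 10073 in E18 DZ, 9286 in E21 ZZ and 9347 in E21 DZ. In single-cell ATAC-seq the Tn5 transposase cuts open DNA, and the count of a region is the number of cut sites in peaks there. In what follows, 4 values given in a row stand in the order ZZ and DZ at E18, then ZZ and DZ at E21.

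Somites are paired blocks of mesoderm that form in sequence from the presomitic mesoderm at the tail end of the embryo. The ventral part of each somite becomes sclerotome, the source of vertebrae and ribs, and the dorsal part becomes dermomyotome, whose PAX3 and PAX7 progenitors give rise to trunk and limb muscle. Tendon progenitors marked by SCX arise where sclerotome meets the muscle-forming part. Somites at different positions carry different HOX codes, and the RNA-binding proteins LIN28A and LIN28B mark early embryonic stages and decline as tissues mature.

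The total of kept counts ranged from 106665140 in E21 DZ to 133037579 in E18 ZZ, and the median count per kept barcode from 9689 to 11452. Peaks had been called in each library separately, and they covered 191 and 168 Mb at E18 against 147 and 158 Mb at E21, in the order ZZ and DZ. Depth and covered length therefore fell with stage. Any pair of libraries had between 140 and 183 barcode sequences in common, at most 1.68% of the smaller library. Gene windows (gene body plus 2 kb upstream) of somite genes were read beside the somite label. Since 21026 of 25411 annotated windows had a peak in all 4 libraries, counts there cannot check that label. PAX3, MYF5, MEOX1, TCF15 and PAX1 all had counts in the 4 libraries, at 125, 134.4, 125 and 110 CPM for PAX3 (CPM, counts per 1000000 kept counts of the library), and markers of other tissues were also open, as described with the gene lists. The counts were summed over the barcodes of a library, and whether a lower sum came with fewer cells of a type or with fewer cuts per cell was not tested.

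To show what opened and closed, 300 bases around the middle of the interval shared by the 4 libraries' peaks are printed for 6 regions from the + strand of Sscrofa11.1: of the named length-matched regions in introns or distal sequence, the 3 with the largest rise at E21 and the 3 with the largest fall. Each region is named after the nearest annotated gene, which need not be the gene it acts on. Capitals mark matches to any of 18 short motifs searched on both strands, and a match is a description of letters rather than a bound site. Regions that rose lay near IMMT (chr3:58583234-58583533, with AP-1 TGANTCA, RUNX TGTGGT and homeobox TAATTA matches), near ARHGAP28 (chr6:100696756-100697055, with an NFI TTGGCA match and the TWIST-type E-box CATATG) and near LRIG3 (chr5:24054270-24054569, with no match). Regions that fell lay near ANGPTL4 (chr2:70921555-70921854, with the neural-type E-box CAGATG, RUNX and TEAD GGAATG matches), near ALG2 (chr1:240949521-240949820, with the MYOD-type E-box CAGCTG and 2 neural-type E-boxes) and in SLIT3 (chr16:54751125-54751424, with a TWIST-type E-box).
IMMT: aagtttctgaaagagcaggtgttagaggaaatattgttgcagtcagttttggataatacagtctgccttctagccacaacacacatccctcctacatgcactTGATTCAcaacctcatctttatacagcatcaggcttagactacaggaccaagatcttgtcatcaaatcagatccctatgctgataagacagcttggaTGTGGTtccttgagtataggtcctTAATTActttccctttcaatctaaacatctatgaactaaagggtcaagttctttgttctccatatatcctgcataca
ARHGAP28: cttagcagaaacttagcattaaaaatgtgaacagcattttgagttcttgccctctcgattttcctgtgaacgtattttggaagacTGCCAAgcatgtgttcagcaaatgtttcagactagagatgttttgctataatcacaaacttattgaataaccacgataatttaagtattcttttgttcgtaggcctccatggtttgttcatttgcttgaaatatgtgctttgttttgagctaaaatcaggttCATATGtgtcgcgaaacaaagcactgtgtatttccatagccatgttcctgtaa
LRIG3: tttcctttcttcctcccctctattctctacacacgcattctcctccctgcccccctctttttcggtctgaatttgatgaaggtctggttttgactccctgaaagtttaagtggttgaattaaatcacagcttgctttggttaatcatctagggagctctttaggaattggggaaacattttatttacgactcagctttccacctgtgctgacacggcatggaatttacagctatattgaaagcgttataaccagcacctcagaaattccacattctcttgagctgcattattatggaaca
ANGPTL4: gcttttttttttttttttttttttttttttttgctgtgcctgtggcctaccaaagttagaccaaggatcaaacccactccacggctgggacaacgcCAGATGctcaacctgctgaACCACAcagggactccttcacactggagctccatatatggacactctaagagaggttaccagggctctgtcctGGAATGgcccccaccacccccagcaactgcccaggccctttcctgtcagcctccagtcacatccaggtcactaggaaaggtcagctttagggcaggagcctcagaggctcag
ALG2: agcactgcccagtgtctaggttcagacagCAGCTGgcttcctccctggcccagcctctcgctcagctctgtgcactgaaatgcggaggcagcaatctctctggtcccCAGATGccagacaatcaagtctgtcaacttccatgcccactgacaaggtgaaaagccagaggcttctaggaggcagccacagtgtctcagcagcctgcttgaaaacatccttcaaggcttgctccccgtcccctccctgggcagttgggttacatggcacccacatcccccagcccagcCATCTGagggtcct
SLIT3: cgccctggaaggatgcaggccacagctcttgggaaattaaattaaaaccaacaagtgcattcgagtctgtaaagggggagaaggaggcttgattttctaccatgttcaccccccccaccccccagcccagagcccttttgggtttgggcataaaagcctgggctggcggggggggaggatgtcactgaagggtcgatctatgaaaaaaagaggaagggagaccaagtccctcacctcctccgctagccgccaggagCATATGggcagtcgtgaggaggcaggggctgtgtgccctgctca

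The first comparison asked which elements opened or closed between the stages. Both directions occurred: of 119412 regions tested, 8301 were more open at E21 (6.95%) and 7937 were less open (6.65%), 13.6% in all (edgeR quasi-likelihood test, adjusted p under 0.05). Since a count exists only inside a called peak, the text turns to the 61370 length-matched regions, in which the bases of called peaks differed at most 1.5 times among the 4 libraries. There 2663 regions rose (4.34%) and 1178 fell (1.92%), 6.26% in all. The median log2 fold change was 1.10 in size among those that rose, with 80% of them between 0.50 and 1.62, and 1.05 among those that fell, with 80% between 0.64 and 1.498. Of the length-matched calls 69.3% were rises, against 80.2% with the covered length as an offset and 47.6% when that set was fitted alone. All these calls were lost without E18 DZ, and most were lost without E18 ZZ. None passed with all 6 libraries in the fit (22656 did at an unadjusted edgeR p under 0.05). For the IMMT region the log2 fold change was 2.71 with 4 libraries, 2.84 without E18 DZ and 2.60 without E18 ZZ. For a region in an intron of ANGPT2 the same values were 2.28, 1.85 and 2.75.

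Within each breed the change could be read without a test. The log2 changes in ZZ and in DZ had a Pearson r of 0.63 and a Spearman rho of 0.60 across the length-matched regions. In both breeds 4091 regions were at least 1.5 times higher at E21 and 3119 at least 1.5 times lower. Changes of this size in opposite directions were seen in 332 regions that rose in ZZ and 59 that rose in DZ. The median size of the log2 difference was 0.29 between stages in ZZ and 0.38 in DZ, against 0.15 between breeds at E18 and 0.25 at E21. The breeds at E21 thus stood nearly as far apart as the stages of ZZ.

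**Figure D1:**
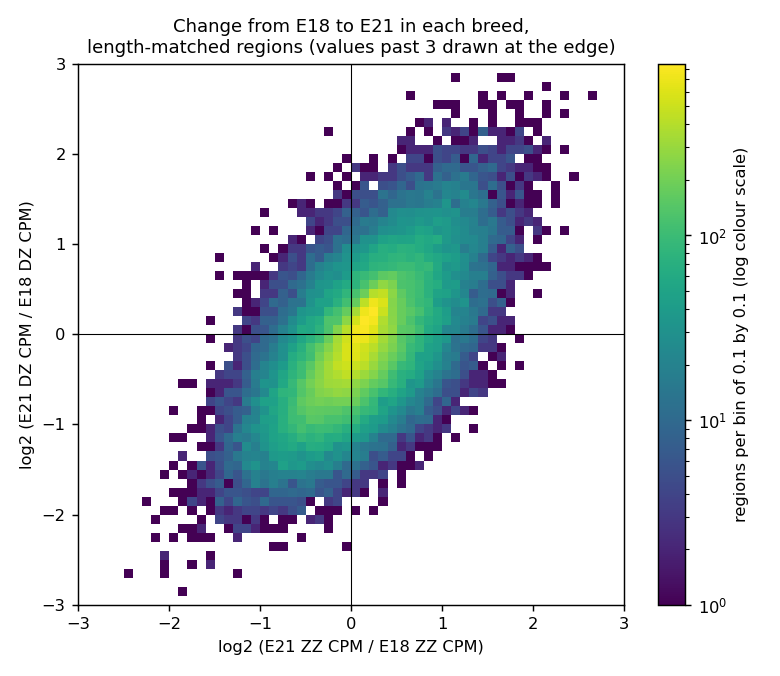
Change from E18 to E21 in each breed over 61370 length-matched regions, with the log2 CPM ratio of ZZ on the horizontal axis and of DZ on the vertical axis, and the number of regions per bin as colour. The cloud runs along the diagonal, with 4091 regions at least 1.5 times higher in both breeds and 3119 at least 1.5 times lower.

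The largest openings lay mostly in introns and distal sequence. They were ranked by fold change above a mean of 5 CPM, so their low access at E18 follows in part from that rule. An intronic region of IMMT, which organises the inner mitochondrial membrane (chr3:58582691-58583934), had 1.61, 1.93, 10.0 and 12.2 CPM. Both E21 libraries lay above both E18 libraries, the log2 fold change was 2.71 ± 0.24 (SE, n = 2 libraries per stage, edgeR adjusted p = 0.0145), and the share of barcodes with a count rose from 1.01% and 1.22% to 5.36% and 5.86%. A region in the 5′ UTR of MBNL1, a splicing regulator of muscle (chr13:92546211-92547650), had 4.74, 5.22, 23.5 and 28.4 CPM, with no overlap of the stages. Its log2 fold change was 2.43 ± 0.17. The share of open barcodes there was 2.78%, 3.22%, 12.02% and 13.4%. A distal region 10602 bp from DACT1, an adaptor that acts in WNT signalling, had 2.10, 1.70, 8.26 and 10.4 CPM, and the E21 libraries were again apart from the E18 libraries (2.35 ± 0.30).

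Further regions among the 12 largest openings lay in introns of THSD4, ADAMTSL1 and ANGPT2. THSD4, a matrix protein that binds fibrillin, held an intronic region with 2.81, 3.19, 12.3 and 14.4 CPM (2.21 ± 0.22), and ADAMTSL1, a secreted matrix protein, one with 2.41, 3.06, 10.0 and 15.6 CPM (2.26 ± 0.24). In an intron of ANGPT2, a ligand of the endothelial receptor TEK that overlaps MCPH1, the CPM was 3.31, 1.81, 10.4 and 12.7 (2.28 ± 0.37). In these regions the lowest E21 value exceeded the highest E18 value. The remaining openings lay near ARHGAP28, LRIG3, RALGPS2, GAREM1, CNGB3 and AUTS2, with log2 fold changes from 2.19 ± 0.22 (AUTS2) to 2.55 ± 0.26 (ARHGAP28), and their stages did not overlap either.

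The largest closings included the start of KRT18, a keratin of simple epithelia. Its region (chr5:18214185-18218978) had 38.2, 39.3, 9.72 and 8.56 CPM and was open in 18.4%, 19.1%, 5.49% and 4.62% of barcodes. The values at E21 were far below those at E18, with a log2 fold change of −2.03 ± 0.13 (edgeR adjusted p = 0.0145). The called peaks there spanned 4794, 4708, 3199 and 3238 bp. SLIT3, a secreted guidance cue, held an intronic region (chr16:54750497-54752345) with 14.4, 11.8, 3.29 and 2.81 CPM (−2.05 ± 0.22). A distal region 8302 bp from ANGPTL4, an inhibitor of lipoprotein lipase, had 6.86, 10.5, 1.68 and 1.92 CPM (−2.18 ± 0.26). In both the stages did not overlap, and the spread between breeds at E18 was larger at ANGPTL4.

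Other closings lay 22178 bp from ALG2, an enzyme of protein glycosylation, with 18.7, 20.3, 5.66 and 3.41 CPM (−2.09 ± 0.24), and at the start of MRAP, an accessory protein of the corticotropin receptor, with 11.7, 11.096, 2.82 and 2.84 CPM (−1.96 ± 0.23). THSD4 was named in both directions, since another of its introns fell from 26.0 and 25.9 to 8.99 and 4.38 CPM (−1.99 ± 0.24). The regions near ATP6V1B1, CNKSR3, TNP1, PAM, FAM53B and SLCO2A1 fell by 1.80 to 1.98 on the log2 scale. In all 24 named regions both libraries of a stage exceeded both of the other stage. Such separation follows largely from the naming rule, which took the largest fold changes among called regions that moved alike in both breeds. All 24 passed without E21 ZZ and without E21 DZ, 19 passed without E18 ZZ, and none passed without E18 DZ (adjusted p from 0.0541 to 0.0945).

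**Figure D2:**
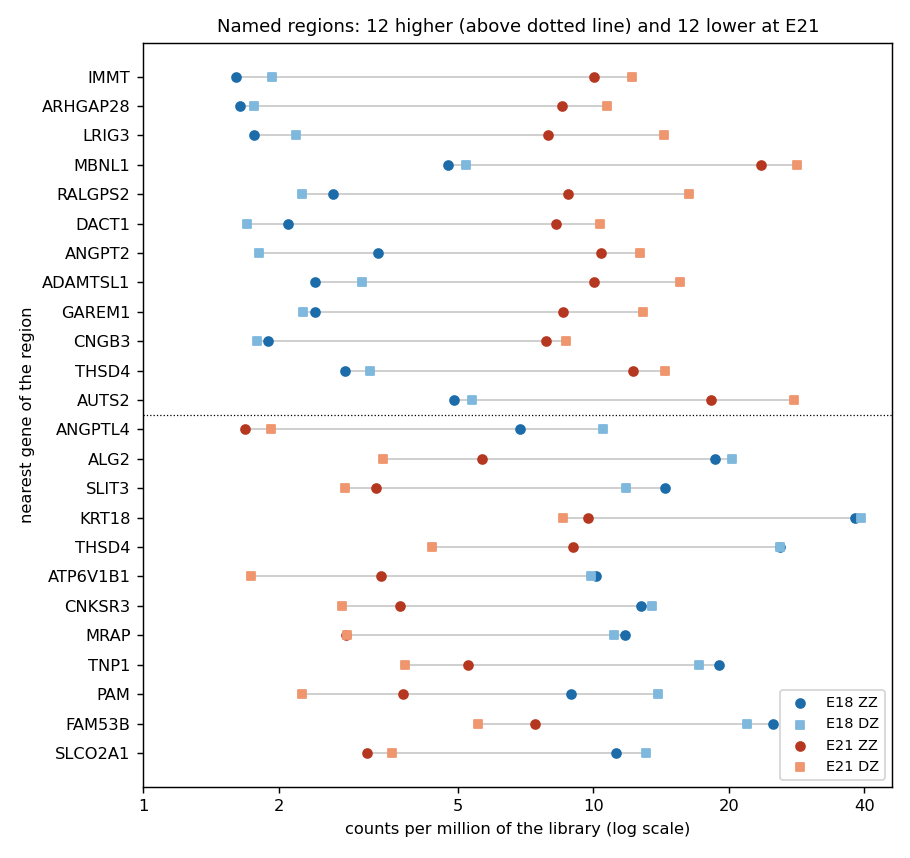
CPM (log axis) of the 24 named regions in each of the 4 libraries, with circles for ZZ and squares for DZ, blue for E18 and red for E21. Above the dotted line are the 12 regions with the largest rise and below it the 12 with the largest fall. Within every row the stages stand apart, which follows largely from choosing the largest changes. Examples are IMMT at 1.61 and 1.93 against 10.0 and 12.2, and KRT18 at 38.2 and 39.3 against 9.72 and 8.56.

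Start sites were then examined, because they tie a region to its gene. Among 11346 length-matched regions that held a gene start, 528 rose (4.65%) and 159 fell (1.4%). The start of the microRNA gene MIR199A-2 on chromosome 2 had 20.8, 18.9, 42.6 and 57.9 CPM, and that of MIR199B on chromosome 1 had 46.9, 37.3, 79.0 and 93.9 CPM. Both were higher in each E21 library, by 1.38 ± 0.19 and 1.10 ± 0.18 on the log2 scale. The 2 microRNA genes lie inside the dynamin genes DNM2 and DNM1, and cuts there cannot be assigned to host or microRNA gene. MFAP4, a protein of elastic microfibrils, had 14.6, 11.3, 29.1 and 26.9 CPM at its start (1.17 ± 0.16), and MEG3, an imprinted non-coding RNA gene, 18.2, 17.4, 35.003 and 41.03 CPM (1.15 ± 0.15). Neither overlapped between stages, which follows largely from naming the largest called changes. RHOJ, a small GTPase of endothelial cells, rose from 10.9 and 11.9 to 24.3 and 29.4 CPM (1.29 ± 0.15), and DPT, a dermal matrix protein, by 1.21 ± 0.21.

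Starts that closed included KRT18 and MRAP, described above, and KRT8, the keratin that pairs with KRT18. KRT8 had 36.2, 34.5, 9.76 and 12.02 CPM, and its start fell by 1.65 ± 0.17 on the log2 scale. LIN28A, which blocks the processing of let-7 microRNAs, had 61.3, 59.7, 28.9 and 19.7 CPM at its start, a log2 fold change of −1.29 ± 0.13. The share of barcodes open there was 28.6% and 28.8% at E18 against 14.5% and 9.68% at E21, so both measures were lower in each E21 library. PHLDB2, ATP8B3, TSTD1 and LRMDA completed the list, with log2 fold changes from −1.25 ± 0.19 (LRMDA) to −1.67 ± 0.29 (PHLDB2). Of the 16 named starts, 9 passed without E18 ZZ and none without E18 DZ (adjusted p from 0.0541 to 0.0992).

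**Figure D3:**
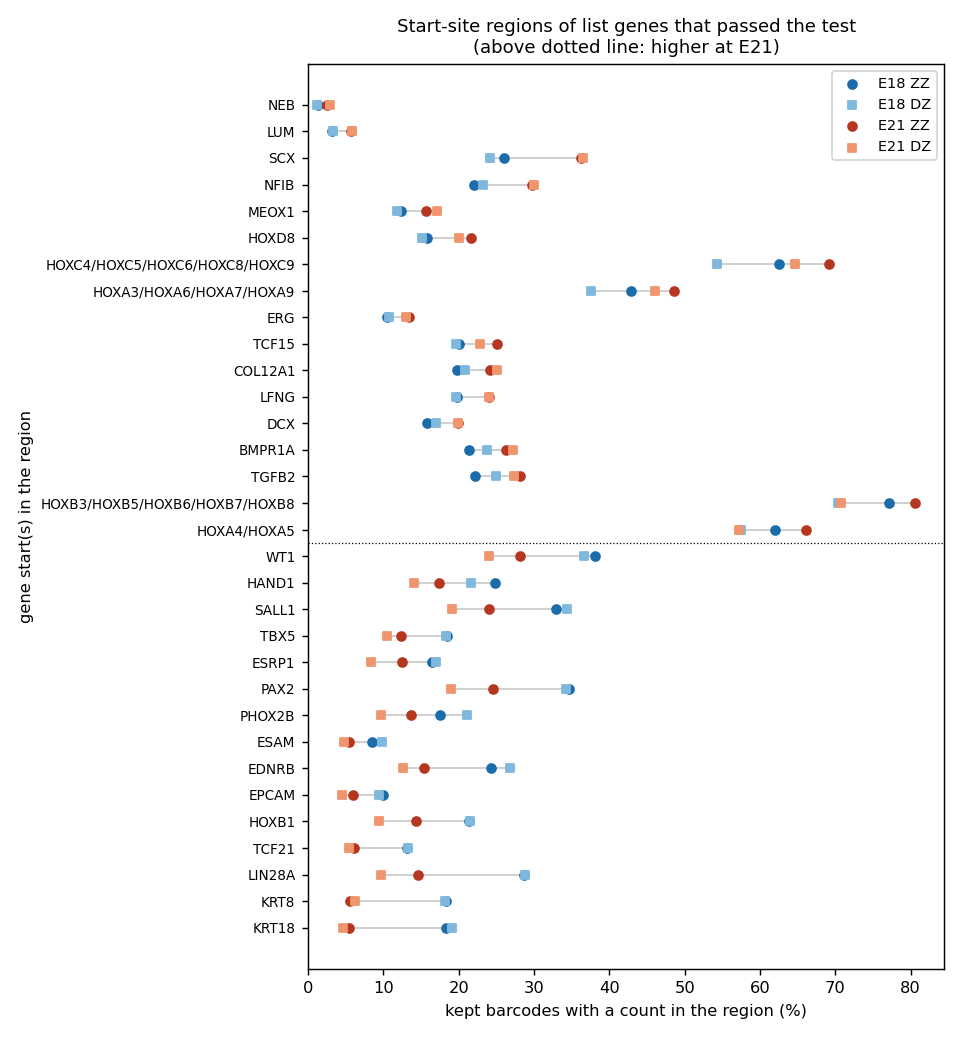
Percentage of kept barcodes with a count in the start-site region, for the 32 length-matched start regions of list genes that passed the test, with 1 point per library (blue E18, red E21, circles ZZ, squares DZ). Above the dotted line are 17 regions higher at E21 by CPM, including 5 HOX regions, and below it 15 lower ones, among them LIN28A at 28.6% and 28.8% against 14.5% and 9.68%.

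Whole genes were compared through windows of the gene body plus 2 kb upstream. Of 21026 windows 1898 rose (9.03%) and 2706 fell (12.9%), 21.9% in all. Of the 13010 length-matched windows 1346 rose (10.3%) and 598 fell (4.6%), 14.9% in all. Rises were 69.2% of the latter calls, against 91.1% with the covered length as an offset and 42.4% when the length-matched set was fitted alone. Over the 2 kb upstream alone the balance turned, with 402 length-matched windows higher and 639 lower. The largest rises among these included FAP, a surface protease of activated fibroblasts, whose window had 8.04, 7.58, 16.3 and 19.01 CPM. That was higher in both E21 libraries by 1.15 ± 0.18 on the log2 scale (edgeR adjusted p = 0.0131). The windows of PRELP, a matrix proteoglycan, and of DPT rose by 0.95 ± 0.18 and 0.96 ± 0.17. MIR199A-2, MFAP4, MEG3 and MIR199B, named for their starts, were also among the 10 largest rises, together with BPIFA3, GAST and CDCP2. The windows of MIR199A-2, MFAP4, MEG3, MIR199B and GAST held the same or nearly the same counts as their start regions. They are therefore not a separate observation.

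The largest falls of length-matched windows were KRT18 (−2.11 ± 0.12, edgeR adjusted p = 0.00238), TSTD1, PRSS54 and MIR769. The counts of the KRT18 and TSTD1 windows were those of their start regions. IGFALS, which binds insulin-like growth factors in blood, had 31.8, 31.2, 15.7 and 12.3 CPM (−1.199 ± 0.13). SLC5A5, the iodide transporter, had 28.1, 30.5, 12.9 and 13.4 CPM (−1.18 ± 0.11). The stages of IGFALS and SLC5A5 were apart, which follows largely from naming the largest called changes. AOX1, TNFSF9, MRAP and SYNE4 fell by 1.11 to 1.197 on the log2 scale. Of the 20 named windows, 13 passed with each library left out in turn. The others were lost in at least 1 leave-out: DPT without E18 DZ (adjusted p = 0.0648), PRSS54 without E18 ZZ (0.0762), AOX1 without E18 DZ (0.22) or E21 DZ (0.0857), TNFSF9 without any library but E21 ZZ (0.0643 to 0.176), and PRELP, TSTD1 and SYNE4 without either E18 library (0.0656 to 0.159).

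The 23 gene lists held 348 genes, of which 333 were in the annotation. Of their 207 length-matched windows 40 passed the test (19.3%), 17 of them higher and 23 lower, beside 14.9% of all length-matched windows, and 11 of the 40 passed with each library left out in turn: CDX2, SOX9, EDNRB, KRT18, CLDN7, WT1, GATA3, NFIB, LIN28A, SALL1 and BMP5. Leaving out E21 ZZ kept 37 of the 40, E21 DZ 20, E18 ZZ 15 and E18 DZ 12. With the covered length as an offset 16 of the 40 kept their call. That offset raised the median log2 fold change of all windows from −0.01 to 0.18, and the medians of 10 lists that were below 0 without it came out above 0, among them myogenic factors, early somite, endothelium, blood and WNT. Windows that passed but were not length-matched are given as counts, and changes in them were not separated from changes in the called length. Most windows and regions of list genes given by value were named because they passed. Where their stages stand apart, that follows largely from this choice.

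Windows of myogenic factors were called about as often as windows of all genes. Of 22 windows of myogenic factors 1 rose and 4 fell, beside 21.9% of all windows called, with a median of −0.10 (0.05 with the covered length as an offset), and of the 16 length-matched ones MEF2C rose and TBX1 fell. PAX3, the factor of dermomyotome progenitors, had 125, 134.4, 125 and 110 CPM, and PAX7, its relative, 168, 170, 184 and 141 CPM. MYF5 and MYOD1, which commit cells to muscle, had 22.6, 23.0, 23.7 and 19.4 CPM and 20.6, 22.01, 20.7 and 18.5 CPM. The stages of these 4 genes overlapped and none passed (edgeR adjusted p from 0.238 to 0.58). MYOG, the factor of differentiating myocytes, was at 7.16, 6.25, 9.78 and 11.51 CPM, both E21 values above both E18 values, but its covered length was unequal and its log2 fold change of 0.64 did not pass (adjusted p = 0.0965).

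Single elements of muscle genes were called in both directions. Across the windows of myogenic factors 4 of 87 length-matched regions rose and 4 fell, beside 4.34% and 1.92% of all length-matched regions. An intronic region of PAX3 had 7.10, 6.93, 3.009 and 2.63 CPM (−1.26 ± 0.25, edgeR adjusted p = 0.0314), while an intronic region of PAX7 had 10.3, 10.9, 19.3 and 14.9 CPM (0.74 ± 0.18, adjusted p = 0.0452, and 0.0522 with total counts alone). The start of TCF21, a factor of head muscle and of mesothelial and kidney mesenchyme, had 24.5, 24.6, 10.9 and 10.3 CPM (−1.15 ± 0.14). Across the windows of sarcomere and contraction genes 3 of 41 length-matched regions rose and 2 fell. A region in NEB, the giant thin-filament protein nebulin, had 2.24, 2.62, 7.15 and 5.80 CPM (1.47 ± 0.27), and an intron of MYMK, needed for myoblast fusion, 20.8, 20.3, 10.6 and 9.20 CPM (−1.003 ± 0.16). MYMK also held a length-matched region that rose. In each of the 5 regions given by value the stages did not overlap, which follows largely from taking the largest called change of each gene. Of 19 sarcomere windows 1 rose (CHRNA1) and 5 fell (MYL4, TNNI1, TTN, RYR1 and CACNA1S), all with unequal covered lengths, beside 9.03% of all windows higher and 12.9% lower, and none of the 7 length-matched ones passed. MYL1 had peaks only at E18 (1.01 and 1.31 CPM). All these region calls were lost without E18 DZ.

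Among length-matched windows TCF15 of the early somite genes opened and CDX2 of the tail genes closed. TCF15, which keeps the somite epithelial, had 39.7, 38.2, 55.9 and 53.9 CPM in its window, higher in both E21 libraries (0.47 ± 0.08, edgeR adjusted p = 0.016, and 0.0561 without E18 DZ). Of the 9 length-matched windows of early somite genes it was the only one that passed, beside 10.3% of all length-matched windows called higher. MEOX1, a homeobox gene of the whole somite, had 42.1, 38.2, 48.1 and 57.5 CPM (adjusted p = 0.0685), while the length-matched region at its start rose by 0.68 ± 0.15 (adjusted p = 0.0407) and was open in 12.3%, 11.8%, 15.7% and 17.1% of barcodes. CDX2, a homeobox gene of the tail bud, had 51.0, 46.1, 25.4 and 20.9 CPM and fell by 1.09 ± 0.09 on the log2 scale (adjusted p = 0.00495). HES7, the clock gene of the presomitic mesoderm, had 80.8, 79.7, 83.5 and 74.9 CPM, with overlapping stages. TBX6, a factor of presomitic mesoderm, fell from 72.9 and 65.3 to 39.4 and 33.1 CPM (−0.96, adjusted p = 0.00513), yet its covered length was not matched and the sign turned with the offset (0.43). MSGN1, another presomitic factor, had a peak only in E18 ZZ. In the list of presomitic mesoderm and clock genes 4 of 18 windows fell, beside 12.9% of all windows, and 1 of the 13 length-matched ones, beside 4.6%. Of the 31 length-matched regions of that list 1 passed, beside 4.34% of all such regions called higher. It lay at the promoter of LFNG, which modifies Notch receptors (0.51 ± 0.12, adjusted p = 0.0477, and 0.0566 with median-of-ratios size factors). The region calls were lost without E18 DZ.

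HOX clusters, which set position along the body axis, held more regions that opened than regions that closed. Their genes lie so close that 1 merged region often held several starts, so the regions rather than the genes are counted: of 29 length-matched regions 7 rose and 1 fell, beside 4.34% and 1.92% of all such regions. The block of HOXC4 to HOXC10 (chr5:19200997-19253595) had 223, 173, 302 and 296 CPM (0.67 ± 0.13), and that of HOXA3, HOXA6, HOXA7 and HOXA9 had 113, 90.1, 152 and 152 CPM (0.65 ± 0.13). HOXD8 had 31.4, 28.1, 45.2 and 45.5 CPM (0.67 ± 0.13). In these 3 blocks the stages did not overlap, which follows in part from naming regions that passed the test. The block of HOXB3 to HOXB8 had 365, 299, 456 and 383 CPM (0.40 ± 0.09), and HOXA4 with HOXA5 had 208, 185, 268 and 223 CPM (0.38 ± 0.08), also without overlap in CPM but with a breed difference nearly as large as that of stage. The share of open barcodes overlapped between the stages in both, at 77.1%, 70.4%, 80.5% and 70.7% for HOXB3 to HOXB8 and at 62.0%, 57.5%, 66.1% and 57.2% for HOXA4 with HOXA5. HOXB1, the most 3′ gene of the HOXB cluster, went the other way, with 44.1, 43.4, 29.2 and 19.5 CPM (−0.82 ± 0.14, edgeR adjusted p = 0.0234). None of these regions passed without E18 DZ. The HOXB3 to HOXB8 block passed in none of the 4 leave-outs (edgeR adjusted p from 0.0612 to 0.307), nor without the breed term (0.0629), with median-of-ratios size factors (0.0593) or with the length-matched set fitted alone (0.582). HOXA4 with HOXA5 did not pass with these size factors (0.0597), in that fit (0.489), or without E18 ZZ (0.0992) or E21 ZZ (0.0501). The HOXC block did not pass in that fit (0.141) or without E21 DZ (0.0636), the HOXA3 to HOXA9 block without E21 DZ (0.0607), and HOXD8 (0.0691) and HOXB1 (0.113) without E18 ZZ.

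The NFI factors, which act late in the differentiation of many tissues, opened at 3 of their 4 windows, beside 9.03% of all windows called higher, and at 2 of the 3 length-matched ones, beside 10.3%. None fell, the median was 0.49 (0.35 with the covered length as an offset), and 9 of the 39 length-matched regions in them rose while 1 fell (4.34% and 1.92% of all such regions). NFIB had 115, 123, 181 and 214 CPM over its window, with the stages apart (0.71 ± 0.09, edgeR adjusted p = 0.00933). An intron of NFIA had 18.9, 18.7, 52.8 and 62.8 CPM (1.67 ± 0.14). An intron of NFIB rose from 1.70 and 1.956 to 6.67 and 6.74 CPM (1.93 ± 0.27). NFIC held the region that fell, with 14.9, 11.7, 6.13 and 4.58 CPM (−1.26 ± 0.20). The region calls were lost without E18 DZ, and the NFIB window passed in every leave-out (adjusted p up to 0.0497).

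Of 87 length-matched regions in windows of sclerotome genes 8 rose and none fell, and of 49 in fibroblast windows 1 rose and 1 fell, beside 4.34% and 1.92% of all length-matched regions. Of the 8 rises 3 lay in SOX5, among its 28 length-matched regions, and 3 in SOX6, among 20, with 1 each in MATN4 and SCX. Of 17 sclerotome windows SCX, TRPS1 and SOX9 rose and ACAN, a cartilage proteoglycan, fell, beside 9.03% of all windows higher and 12.9% lower, and SOX9 alone of these was length-matched. SOX9, the master factor of cartilage, had 35.3, 38.9, 56.4 and 55.6 CPM in its window (0.57 ± 0.08, edgeR adjusted p = 0.0118), higher in both E21 libraries. The tendon gene SCX shares a start-site region with BOP1, and that region had 55.5, 49.9, 92.7 and 103 CPM (0.95 ± 0.14). It was open in 26.0%, 24.2%, 36.3% and 36.5% of barcodes. Introns of SOX5 and SOX6, partners of SOX9 in cartilage, rose by 1.27 ± 0.21 and 1.27 ± 0.30. SOX6 is not particular to cartilage, and the authors reported its highest expression and motif enrichment in myocytes. The SOX6 change was 0.82 without E21 DZ and 1.70 without E21 ZZ. LUM, a collagen-binding proteoglycan, had 5.51, 5.56, 10.8 and 11.15 CPM at its promoter (1.04 ± 0.21), and OSR2, a factor of loose mesenchyme, fell from 26.9 and 27.0 to 18.7 and 14.6 CPM (−0.65 ± 0.14). Only the SOX9 window among these kept its call without E18 DZ (adjusted p = 0.0141), and with the covered length as an offset its change was 0.08.

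Of the signalling lists, BMP and TGF-beta had 3 of 14 length-matched windows higher at E21 and none lower, beside 10.3% and 4.6% of all length-matched windows. These were BMP5, BMPR1A and ID4, a ligand, a receptor and a target of the pathway. BMP5 had 41.7, 42.7, 63.0 and 72.5 CPM (0.66 ± 0.09, edgeR adjusted p = 0.00982), with the stages apart. Of 64 length-matched regions in these windows 8 rose and 1 fell, beside 4.34% and 1.92% of all such regions, among them an intron of the receptor TGFBR2 with 11.6, 10.4, 21.2 and 32.0 CPM (1.30 ± 0.24). Hedgehog had no called window among 12, FGF 1 higher and 1 lower among 15, and retinoic acid 1 and 1 among 13, beside 9.03% of all windows higher and 12.9% lower. Of their length-matched regions, 3 of 80 rose and 2 fell for Hedgehog, 3 of 54 rose and 2 fell for FGF, and 1 of 42 rose for retinoic acid. WNT had 1 higher and 4 lower among 21. With the covered length as an offset it had 1 and 0, beside 3377 and 305 of all 21026 windows. Of its 57 length-matched regions 3 rose and 2 fell. The rises were in the receptor LRP6 (1.10 ± 0.23), the inhibitor SFRP1 (0.93 ± 0.16) and the enhancer of signalling RSPO2 (1.35 ± 0.25), while an intron of the ligand WNT7A fell from 8.37 and 10.4 to 3.45 and 2.39 CPM (−1.64 ± 0.28). Of 70 length-matched regions of matrix genes 6 rose and none fell, against the same shares, with THBS4 at 3.61, 4.43, 11.2 and 11.6 CPM (1.56 ± 0.22) and LAMB1 at 2.38, 2.85, 5.16 and 10.9 CPM (1.58 ± 0.32). Of 17 matrix windows LAMA2, COL12A1 and ELN rose, and NID2 and HSPG2 fell. MSTN, the inhibitor of muscle growth, had peaks only at E21, at 1.97 and 4.06 CPM.

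Genes of the early embryo fell in 7 of 13 windows of the list of LIN28 and early embryonic factors, and none rose, beside 12.9% of all windows lower and 9.03% higher. The median was −0.40, and 5 of the 10 length-matched windows fell, beside 4.6% of all length-matched windows. With the covered length as an offset 3 of the 13 fell and 1 rose, beside 305 lower and 3377 higher of all 21026 windows. LIN28A had 97.3, 92.7, 54.6 and 39.1 CPM over its window (−1.06 ± 0.11, edgeR adjusted p = 0.00741), and passed with every library left out. SALL1, a zinc finger factor, had 80.9, 83.3, 58.5 and 47.5 CPM (−0.66 ± 0.10), again lower in both E21 libraries. LIN28B and TRIM71, a target of let-7, had unequal covered lengths over their windows, but each held a length-matched region that fell, by 1.19 ± 0.23 and 0.88 ± 0.18. HMGA2, another let-7 target, held an intronic region that rose from 26.7 and 26.7 to 39.7 and 51.4 CPM (0.82 ± 0.15). DNMT3B, SALL4 and SP8 were called lower but not without E18 DZ (adjusted p from 0.111 to 0.174), and DNMT3B was at 0.12 with the covered length as an offset.

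**Figure D4:**
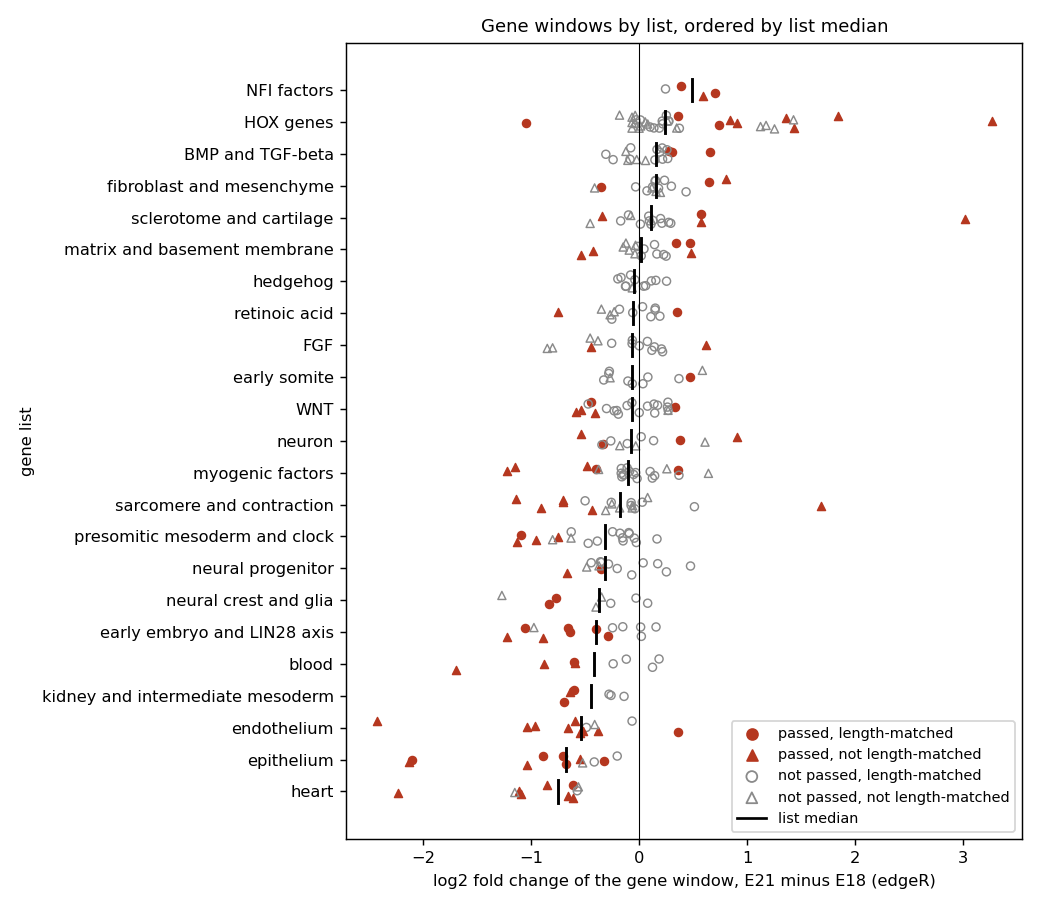
Log2 fold change of each tested gene window (E21 minus E18), grouped by gene list and ordered by the list median, drawn as a black bar. Filled red symbols passed the test, circles are length-matched and triangles are not. The medians run from −0.75 for heart to 0.49 for the NFI factors.

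Summed markers of several other tissues were lower at E21. Of 11 epithelium windows 8 fell, 5 of them among the 7 length-matched, and the summed level was 497, 492, 340 and 286 CPM. Of 10 heart windows 7 fell, 1 of them among the 2 length-matched, at a summed 528, 400, 296 and 218 CPM. Kidney and intermediate mesoderm had 3 of 6 lower (2 of 5 length-matched) at 633, 599, 483 and 410 CPM, endothelium 8 of 12 lower and 1 higher (0 and 1 of 3 length-matched) at 696, 702, 576 and 562 CPM, and blood 4 of 8 lower (1 of 5 length-matched) at 380, 356, 323 and 320 CPM. In these 5 lists both E21 sums lay below both E18 sums. The same held for the neural crest, sarcomere, presomitic and clock, early embryo and WNT lists, so it was not particular to these tissues. The sums include windows of unequal covered length. Of all windows 12.9% were called lower, and of all length-matched windows 4.6%. With the covered length as an offset 305 of all 21026 windows were called lower. The lower calls were then 4 for epithelium, 1 for heart, 1 for kidney and intermediate mesoderm, 0 for endothelium and 0 for blood. Neural progenitor genes summed to 717, 780, 738 and 627 CPM, which overlapped, and neural crest genes to 394, 404, 368 and 320 CPM, with 2 of 8 lower. Myogenic genes summed to 1543, 1507, 1521 and 1473 CPM and sclerotome genes to 1343, 1399, 1594 and 1617 CPM. Sarcomere genes summed to 726, 724, 664 and 599 CPM and presomitic and clock genes to 1094, 1053, 960.4 and 895 CPM, and in each both E21 sums lay below both E18 sums. GATA1, a factor of red blood cells, had no peak in any library.

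Single markers of these lists are given by value. CLDN7, a tight junction protein, had 51.4, 48.0, 32.6 and 30.4 CPM over its window (−0.68 ± 0.08, edgeR adjusted p = 0.00875). WT1, a factor of kidney and mesothelium, had 113, 105, 72.5 and 72.6 CPM (−0.61 ± 0.08), and GATA3, expressed in the nephric duct, 136, 132.8, 91.4 and 77.5 CPM (−0.69 ± 0.09). All 3 were lower in both E21 libraries and passed in every leave-out. EDNRB, a receptor of neural crest cells, had 55.7, 62.5, 35.7 and 31.6 CPM (−0.83 ± 0.10) and passed likewise. With the covered length as an offset 1 window of kidney and intermediate mesoderm was called lower, so WT1 and GATA3 did not both keep their calls. Of 42 length-matched regions in endothelial windows 2 rose and 1 fell, near the 4.34% and 1.92% of all such regions: an intron of the receptor FLT1 (1.39 ± 0.22) and the start of the factor ERG (0.55 ± 0.13) rose, and ESAM, a junction protein, fell by 0.73 ± 0.17 on the log2 scale. These 3 calls were lost without E18 DZ, and that of ERG also with median-of-ratios size factors (adjusted p = 0.0514). The whole FLT1 window was among the 8 of 12 endothelial windows called lower, all of them with unequal covered lengths. The part of such tissues in the closings of KRT8, KRT18 and other elements was not tested.

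The elements that changed were mostly introns and distal sequence, like those tested. Among length-matched regions, introns were 34.98% of those tested, 34.7% of those that rose and 35.8% of those that fell, and distal sequence 31.4%, 31.2% and 32.0%. With promoters counted ahead of exons, promoters made up 19.97% of those tested, 20.8% of those that rose and 15.4% of those that fell, and exons 11.0%, 10.03% and 14.4%. Regions that rose lay at a median of 29161 bp from the nearest start, against 22109 bp for all tested. The median GC content was 50.3% in those that rose and 55.0% in those that fell, against 52.3% in all tested. Regions with peaks at only 1 stage were outside the test. Of 274236 merged regions, 39218 had a peak in both E18 libraries and in no E21 library, and 19171 the reverse. When a peak had to be cut in 1% or more of barcodes, these counts were 17621 and 10827. Peaks in both libraries of 1 breed (ZZ and DZ) and in neither of the other were found in 1857 and 1350 regions. The remaining pairings, E18 ZZ with E21 DZ and E18 DZ with E21 ZZ, had 2562 and 606. Kept counts and covered length were also higher at E18, and their part in these counts was not tested. Among regions with peaks only at E21 were an intron of SLIT3 (8.83 and 14.5 CPM) and an intron of MBNL1 (8.21 and 13.1 CPM).

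Shares of motif letters are given for 61367 length-matched regions tested, the 2663 of them that rose and the 1178 that fell. Of the 18 motifs searched only some are described. The TWIST-type E-box CATATG was found in the central 300 bases of 4.72% of those tested, in 7.25% of those that rose (Wilson 95% interval 6.32 to 8.30) and in 2.46% of those that fell (1.72 to 3.51). The GATA letters AGATAA were in 11.0%, in 8.94% (7.91 to 10.1) and in 15.0% (13.1 to 17.2). MEF2 letters TAAAAATA, which muscle enhancers often hold, were in 2.57%, 3.68% and 1.61%, and HOX with PBX letters TGATNNAT in 11.8%, 14.3% and 12.9%. The neural-type E-box CAGATG was in 24.2%, 27.5% and 22.2%. The MYOD-type E-box CAGCTG was in 23.8%, 26.0% and 24.2%, NFI letters in 14.0%, 14.4% and 13.2%, and AP-1 letters in 8.995%, 9.54% and 8.40%. TEAD letters GGAATG were in 18.2%, 21.2% and 19.2%, and ETS letters CCGGAAG in 4.36%, 3.45% and 3.57%. These intervals cover counting error only, the GC content differed between the sets as given above, and its part in the motif shares was not tested.

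Covered length moved with the counts. Over all regions tested, a Pearson r of 0.90 and a Spearman rho of 0.88 linked the log2 fold change to the log2 ratio of covered length, and the 2 had the same sign in 96.5% of called regions. Regions are not independent replicates. Within the length-matched regions the r was still 0.72, and the signs matched in 86.6% of called regions. With covered length as an offset, 2614 of the 2663 regions that rose and 1087 of the 1178 that fell were called in the same direction. When the length-matched regions were fitted alone, 2459 and 1178 were. These 2 fits called 13377 and 12541 length-matched regions, against 3841 in the main fit, so a kept call there is a weak check.

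**Figure D5:**
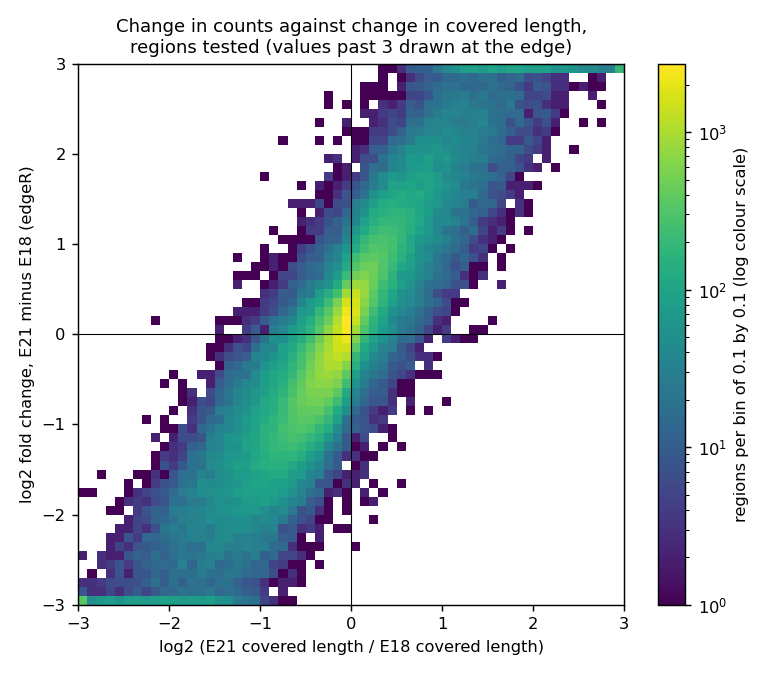
Log2 fold change of counts (vertical axis) against the log2 ratio of covered length (horizontal axis), E21 to E18, for the 119412 regions tested, with the number of regions per bin as colour. The points follow a rising line, with a Pearson r of 0.90, and the length-matched regions are part of the cloud near 0 on the horizontal axis.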

How the data were processed

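The authors aligned reads to Sscrofa11.1 (Ensembl 98 reference) with Cell Ranger ATAC (version 1.2.0 in the file headers) and called peaks per library. As deposited by the authors, each matrix holds unnormalized counts, 1 per Tn5 cut site, for peaks by barcodes. The submitters' notes also name Seurat 3.1.1 and Signac 0.2.2. No peak passed a chromosome end of the RefSeq assembly (annotation release 106).

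Barcodes with 2000 to 30000 counts were kept, with no doublet caller. Overlapping peaks (1 bp) of the 4 libraries were merged, and counts were summed per library. Regions and gene windows were tested with edgeR 4.0.16 (R 4.3.3): TMM, filterByExpr, terms for breed and stage, 1 residual degree of freedom, Benjamini-Hochberg adjusted p under 0.05. The breed term is the replicate block. Dispersion was moderated across the regions or windows tested, and each SE is the size of the log2 fold change over the square root of F. Regions needed a peak in all 4 libraries. The scripts were tested on simulated counts. Named are the 12 regions, 10 windows and 8 start regions with the largest change each way among those length-matched, called, changed the same way in both breeds, with a mean of at least 5 CPM and within 50 kb of a gene with a symbol (1 a gene), and, for list genes, the largest called length-matched region of each gene and the defining windows. The named loci were taken after their values were seen.

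The members, lists and tests were chosen with earlier results of these data known. Elements were assigned in the order exon, promoter, UTR, intron, distal. Alternatives were DESeq2 1.42.0, other scalings, filters, covered length limits, windows, merging rules, no breed term, all 6 libraries and each library left out.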

Additional observations from a re-analysis of the deposited data

Results flagged for a closer look

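The window of PAX7 was flagged because the breeds moved in opposite directions beyond counting error. Its log2 ratio of CPM between E21 and E18 was 0.13 in ZZ and −0.27 in DZ, from 168 to 184 CPM in ZZ and from 170 to 141 CPM in DZ. Length-matched regions changed by a median size of 0.29 in ZZ and 0.38 in DZ, so neither PAX7 change was large. With 1 library for each stage and breed, the difference between breeds was not tested.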

How the results depend on the processing

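Of the 101 named items that passed, median-of-ratios size factors kept all 101 calls, DESeq2 99, total counts alone 93, no breed term 87, the covered length as an offset 74 (with 3 turned), and all 6 libraries in the fit 20. Leaving out E21 ZZ kept 98, E21 DZ 79, E18 ZZ 58 and E18 DZ 26. Of the 88 list genes with a called length-matched region, that call was kept for 69 with median-of-ratios size factors, 86 with total counts, 85 with the offset, 88 with DESeq2, 80 with no breed term, 0 with all 6 libraries, and 0 (without E18 DZ) to 80 (without E21 ZZ) in the leave-outs. These leave-outs had a stage term alone, so the lone library of a stage was assumed to vary like the pair of the other stage. The replicate block pairs libraries by the breed that their labels give. The breed differences at E18 and E21 had a Pearson r of −0.03 across length-matched regions, and without the replicate block 5776 of these passed in place of 3841.

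Called regions numbered 16238, against 29115 with the offset, 0 with all 6 libraries (22656 at an unadjusted p under 0.05), and 0 (without E18 DZ, 26153 unadjusted) to 31853 (without E21 ZZ) in the leave-outs. Called length-matched regions numbered 3841, against 5975 with total counts, 13377 with the offset, 6606 with DESeq2, 0 with all 6 libraries (9154 unadjusted), 9184 over peaks open in at least 1% of barcodes, 12541 fitted alone, 1812 and 7261 with a tighter and a looser limit on covered length, and 0 (without E18 DZ, 6516 unadjusted) to 12141 (without E21 ZZ) in the leave-outs. Called windows numbered 4604, against 830 with all 6 libraries, 1899 over 2 kb upstream alone and 1404 (without E18 ZZ) to 8046 (without E21 ZZ) in the leave-outs. Length-matched windows numbered 1944, against 186 with all 6 libraries, 3754 fitted alone, 1010 and 3249 with the tighter and the looser limit, 1041 over 2 kb upstream (402 higher, 639 lower), and 243 (without E18 DZ) to 4339 (without E21 ZZ). Rises made up 51.1% of called regions and 41.2% of called windows, against 72.3% and 91.7% with the offset. Of length-matched regions they made up 79.8% with the GC trend removed, and of length-matched windows 46.2% without E18 ZZ. On autosomes alone, chosen after seeing the data, the 4 counts were 16017, 3779, 4494 and 1880.

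With the offset the log2 change of a window turned to 0.058 for PAX3, 0.14 for PAX7, 0.43 for TBX6, 0.12 for DNMT3B and −0.016 for RSPO2. In the leave-outs it ran from −0.25 to 0.091 for PAX7, from −0.23 to 0.022 for MYF5 and from −0.10 to 0.023 for HES7, the upper values being those without E21 DZ. Fewer or more samples, features or counted bases enter by construction, and the causes of the other changes were not tested. At these depths counting error is largest in the regions of lowest CPM.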

Other observations

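Some genes gathered several length-matched regions that changed, and they are given here as values, chosen after the counts were seen. Of all length-matched regions 4.34% were called higher and 1.92% lower, and regions are counted here by their nearest gene. NFIB had 7 of 16 regions higher at E21 and none lower, and BACH2, a repressor of lymphocyte differentiation, 6 of 21 and none. The region at the 5′ end of BACH2 had 103, 113, 147 and 187 CPM (ZZ and DZ at E18, then at E21). COL5A2, a chain of fibrillar collagen, had 4 of 11 higher and none lower, among them an intron at 5.25, 5.04, 13.5 and 13.98 CPM. MECOM had 5 of 28 higher, all intronic, while the region in its 5′ UTR was lower, at 27.8, 33.1, 20.8 and 16.2 CPM.

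The guidance genes SLIT1 and SLIT3 lay on the other side. SLIT1 had 4 of 15 regions lower and none higher, with an intron at 28.2, 24.3, 12.1 and 11.4 CPM. SLIT3 had 5 of 50 lower and 1 higher, the latter at 2.59, 1.87, 6.24 and 6.29 CPM.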
